A study of Mus musculus with 19 samples.

Results

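RNA of microglia-enriched brain homogenate was compared between 3-month-old mice that overexpress human α-synuclein and wild-type mice of the same age. The first group, labelled HEM, carries full-length wild-type human α-synuclein on the X chromosome under the murine Thy-1 promoter and is represented by 4 libraries. The second, labelled WT, is represented by 3 libraries, and both groups have the B6D2F1/J background. Each library comes from 1 animal by its title, and replicates are called here by the animal number in the title (1, 3, 4 and 7 for HEM, 1, 3 and 5 for WT). The series also holds 8 HEM and 4 WT libraries at 13 months, which are used below for the age comparison. Of the 49671 genes in the files, 21859 reached a normalized count of 10 in at least 3 of the 7 libraries and are described. Of these, 743 reached it in exactly 3 libraries, and 964 genes that reached it in exactly 2 were left out. A normalized count is the number of reads assigned to a gene divided by the size factor of its library.

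α-Synuclein is a presynaptic protein whose aggregates form the Lewy bodies of Parkinson disease. The Thy-1 promoter drives transgenes mainly in neurons. Microglia are the resident macrophages of the brain. They clear debris and synapses, present antigen and release cytokines, and a preparation of them from whole brain can carry along other cells, among them ependymal cells, whose motile cilia move cerebrospinal fluid.

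The 7 libraries held 74.7 to 112.9 M (mega) reads in genes, with a mean of 92.4 ± 16.4 M in HEM (SD, n = 4) and 92.9 ± 12.4 M in WT (SD, n = 3). Microglial marker genes were high per kilobase of exon: the mean normalized count per kilobase of Tmem119, P2ry12 and Cx3cr1 lay at the 99.7th, 99.7th and 99.6th percentile of tested genes. The choroid plexus transcript Ttr was at the 100th percentile on that scale, the endothelial gene Cldn5 at the 99.8th and the neuronal gene Snap25 at the 81.2nd, so the homogenate held RNA of other cells. HEM replicate 3 stood apart on the first principal component, which took 28.2% of the variance (score -85.6, against -13.0 to 52.5 in the other 6 libraries). That library had the highest level of pan-neuronal and synaptic genes (mean log2 level 12.85, against 11.75 to 11.94 in the other HEM libraries and 10.86 to 11.88 in WT). In bulk RNA, fewer cells of a type and less RNA per cell cannot be told apart.

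No gene passed the main test, limma's moderated test on log2(normalized count + 1) with Benjamini-Hochberg adjustment (0 of 21859, 0.0%, smallest adjusted p 0.825). Without adjustment, limma gave 1284 genes, 5.87%, a p under 0.05, of which 700 (3.2%) were higher and 584 (2.67%) lower in HEM. edgeR's quasi-likelihood test on the recovered reads also called 0 genes, with 1347 at an unadjusted p under 0.05. DESeq2 on the same reads called 99 of 21378 genes (0.463%), 42 higher (0.196%) and 57 lower (0.267%). The groups did not overlap in 96 of those 99 genes, against 1262 of all 21859 tested genes (5.77%; 2.96% with all HEM above all WT and 2.81% with all HEM below). Those 99 genes were called in the same libraries, so their separation follows in large part from the calls. The median log2 difference, HEM minus WT, over all tested genes was 0.0057, and 51.2% of the genes had a positive one. The genes below are therefore described by their values, and those that DESeq2 called are said to be so.

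The DESeq2 calls depended on the libraries. Leaving out WT replicate 1 gave 545 calls, and leaving out WT replicate 5 gave 30. Without HEM replicate 1, 3, 4 or 7 the number was 44, 65, 200 or 172, and without WT replicate 3 it was 48. Of the 99 genes, 8 were called in all 7 of these fits, 4 of them higher (Ache, Gzmb, Serpina1b and Gm6685) and 4 lower (Hydin, Spata18, Got1l1 and Cfap46), and 56 were called in at most 3.

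**Figure D1:**
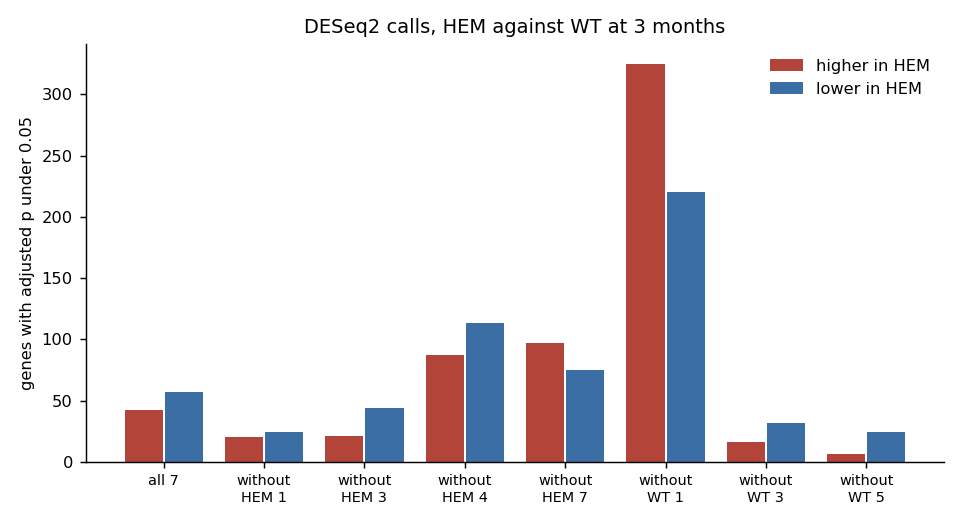
Number of genes with a DESeq2 adjusted p under 0.05 (vertical axis) with all 7 libraries and with each library left out in turn (horizontal axis), for genes higher (red) and lower (blue) in HEM. The total runs from 30 without WT replicate 5 to 545 without WT replicate 1, against 99 with all 7.

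Thy1, the gene whose promoter drives the transgene and which encodes a surface glycoprotein of neurons and T cells, was read at 21865, 51370, 18692 and 18307 normalized counts in HEM replicates 1, 3, 4 and 7. In WT replicates 1, 3 and 5 it was at 8035, 10886 and 3367. Every HEM library was above every WT library, and HEM replicate 3 was the highest. The log2 difference was 1.90 ± 0.46 (SE), with a limma unadjusted p of 0.00292 and a DESeq2 adjusted p of 0.0201, and DESeq2 still called the gene in 5 of the 7 fits on 6 libraries. The pan-neuronal list, which includes Thy1, was also at a higher level in HEM (mean 12.09, against 11.29 in WT). A fit with that level as a covariate therefore cannot tell a neuronal part from a genotype effect, here or below. With that level, the neuronal level below, as a covariate, the difference was 0.98 (limma unadjusted p 0.0527). At 13 months it was 1.20 ± 0.50 (SE; limma adjusted p 0.122), while the median of the pan-neuronal list was 0.16. Thy1 had the largest 3-month difference of that list and was its only DESeq2 call. Whether a part of its reads in HEM came from the transgene was not tested.

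The Y-linked gene Ddx3y was at 7078 to 8414 and Xist, which is expressed from the inactive X chromosome, at 6.37 to 44.4 in the 7 libraries.

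Genes of mature forebrain neurons mostly had higher values in HEM, although none passed the main test. Of the 29 pan-neuronal and synaptic genes 28 had a positive difference, with a median log2 difference of 0.79, and 15 had an unadjusted limma p under 0.05, all higher, against 3.2% of all tested genes. All 10 excitatory neuron genes were positive (median 1.11), as were 10 of 12 inhibitory neuron genes (median 0.80) and 9 of 12 genes of striatal and monoamine neurons (median 0.74). All HEM were above all WT for 3 of 29, 4 of 10, 4 of 12 and 3 of 12 of these genes, against 2.96% of all tested genes. The cerebellar granule and Purkinje genes had a median of 0.35, with 8 of 10 positive and none with an unadjusted limma p under 0.05 or with all HEM above all WT. The 11 immature neuron and neural precursor genes had a median of -0.18, with 5 positive and 6 negative. DESeq2 called Thy1, Gad2 and Drd1, all higher in HEM, and 1 of the 11 immature neuron genes, which was lower. Of these 11 genes 2 had all HEM below all WT, against 2.81% of all tested genes. An unadjusted limma p under 0.05 with a lower value was reached by 2 of the 11, against 2.67%. HEM replicate 3 carried a part of these list values. Without it the median was 0.49 for pan-neuronal, 0.75 for excitatory, 0.48 for inhibitory, 0.51 for striatal and monoamine, 0.093 for cerebellar and 0.0068 for immature neuron genes, and that of the last list was 0.099 without WT replicate 5.

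Gad2, which makes GABA in inhibitory neurons, was at 564, 1134, 566 and 507 in HEM and at 373, 133 and 170 in WT. HEM replicate 3 was the highest and WT replicate 1 the closest WT library to HEM. The log2 difference was 1.68 ± 0.41 (SE; limma unadjusted p 0.00281, DESeq2 adjusted p 0.0368). Crhbp, a binding protein that sequesters corticotropin-releasing hormone, had the largest difference among the 12 higher genes of smallest p, 2.66 ± 0.57 (SE). It was at 128, 418, 116 and 169 in HEM and at 61.2, 21.4 and 15.9 in WT, so that all HEM libraries were above all WT libraries. The vesicular glutamate transporter gene Slc17a7 was at 6685, 19216, 5984 and 6721 in HEM and at 5059, 2965 and 2398 in WT. The striatal genes Drd1, a dopamine receptor, and Tac1, the precursor of substance P, were higher by 0.94 ± 0.25 and 1.60 ± 0.46 (SE). Dlx5, a transcription factor of inhibitory neurons, was at 50.4 to 76.9 in HEM and 18.6 to 28.5 in WT. Its difference of 1.21 ± 0.32 (SE) was 1.19 with the neuronal level as a covariate, while that of Slc17a7 went from 1.36 ± 0.42 (SE) to 0.29.

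Ache, which encodes acetylcholinesterase, the enzyme that ends cholinergic transmission, was the higher gene of smallest p. It was at 4114, 3965, 3689 and 3238 in HEM and at 2264, 2492 and 2226 in WT. The spread within each group was small beside the gap between them. The log2 difference was 0.68 ± 0.11 (SE; limma unadjusted p 0.000206, DESeq2 adjusted p 0.000581), between 0.64 and 0.75 with any 1 library omitted and 0.63 with the neuronal level as a covariate. At 13 months it was 0.12 ± 0.18 (SE). Car11, a carbonic anhydrase-related gene of brain, was higher by 0.87 ± 0.20 (SE) and Stra6, the cell-surface receptor for retinol-binding protein, by 0.61 ± 0.13 (SE; 10533 to 14583 in HEM and 7767 to 8965 in WT).

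**Figure D2:**
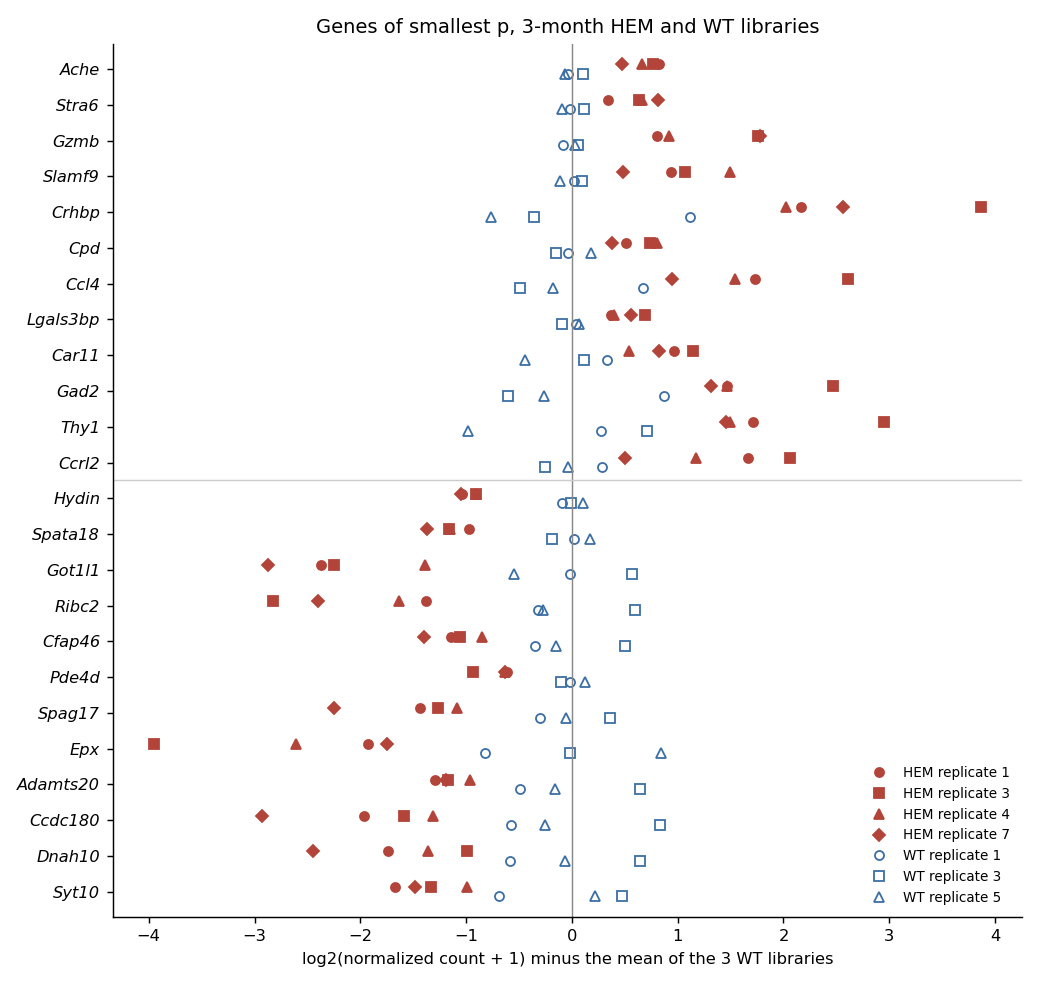
Values of the 12 higher and 12 lower genes of smallest p in the 7 libraries, as log2(normalized count + 1) minus the mean of the 3 WT libraries (horizontal axis), with HEM as filled red and WT as open blue symbols and one symbol shape per replicate. All 4 HEM libraries lie on one side of all 3 WT libraries in each of the 24 genes, which were chosen by their p.

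Gzmb, the granzyme that cytotoxic lymphocytes use to kill target cells, was at 825, 1595, 894 and 1614 in HEM and at 446, 490 and 480 in WT. All HEM libraries were above all WT libraries, and DESeq2 called it with any 1 library omitted. The difference was 1.31 ± 0.27 (SE; DESeq2 adjusted p 0.00276). All 17 T and NK cell genes had a positive difference, with a median of 0.68. All HEM were above all WT for 1 of 17, against 2.96% of all tested genes, and 3 of 17 had an unadjusted limma p under 0.05 and were higher, against 3.2%. Ncr1, an activating receptor of NK cells, was at 1185, 1553, 387 and 452 in HEM and at 364, 397 and 186 in WT, so HEM replicates 4 and 7 lay near or within the WT range. The T and NK cell level, like the neuronal level, was highest in HEM replicate 3 (10.98, against 8.92 to 9.96 in the other 6 libraries). Within WT the lowest library was replicate 3 for the T and NK cell level and replicate 5 for the neuronal level. The median of the list was -0.12 with the neuronal level as a covariate. It was 0.34 without HEM replicate 3 and 0.28 without WT replicate 3.

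Ccl4 and Ccl3 encode the chemokines MIP-1β and MIP-1α, which microglia and macrophages release. Ccl4 was at 7714, 14208, 6773 and 4491 in HEM and at 3698, 1650 and 2055 in WT. All HEM libraries were above all WT libraries, with HEM replicate 7 and WT replicate 1 the nearest to each other. The difference was 1.71 ± 0.39 (SE; DESeq2 adjusted p 0.0119). Ccl3 was higher by 1.27 ± 0.34 (SE) and overlapped, with HEM replicate 7 at 8206 below WT replicate 1 at 8432. Ccrl2, an atypical receptor that binds the chemoattractant chemerin, was at 13147, 17351, 9393 and 5870 in HEM and 5076, 3492 and 4042 in WT, a difference of 1.35 ± 0.33 (SE). With the neuronal level as a covariate the differences of Ccl4, Ccl3 and Ccrl2 were 0.82, 0.48 and 0.75. Of the 25 inflammatory cytokine and NF-kB genes 21 were positive (median 0.33). An unadjusted limma p under 0.05 was reached by 5 of them, all higher, against 3.2% of all tested genes. The median was -0.07 with the neuronal level as a covariate, 0.18 without HEM replicate 3, 0.097 without WT replicate 3, 0.64 without HEM replicate 7 and 0.67 without WT replicate 1.

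Slamf9, a receptor of the SLAM family found on myeloid cells, was at 2565, 2812, 3770 and 1870 in HEM and at 1362, 1432 and 1237 in WT. Its level in HEM replicate 7, the lowest of that group, was still above every WT library. The difference was 0.99 ± 0.21 (SE; DESeq2 adjusted p 0.0126). With the neuronal level as a covariate it was 0.95, against 0.82 of 1.71 for Ccl4. Lgals3bp, a secreted glycoprotein that binds galectin-3, was at 16818 to 18802 in WT and 23223 to 28997 in HEM, and Cpd, a carboxypeptidase of the secretory pathway, was higher by 0.61 ± 0.13 (SE).

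All 19 antigen presentation genes were positive (median 0.40). An unadjusted limma p under 0.05 was reached by 7 of them, against 3.2% of all tested genes that were higher at that p. For 3 of them all HEM were above all WT, against 2.96% of all tested genes. With the neuronal level as a covariate the median was 0.08. H2-K1, the heavy chain of a class I molecule, was at 18594, 30653, 17759 and 21075 in HEM and at 16481, 13560 and 12603 in WT, a difference of 0.61 ± 0.20 (SE). H2-Aa, a class II chain, was higher by 0.58 ± 0.20 (SE) and overlapped. Of the 25 interferon response genes 22 were positive (median 0.25). The median was 0.0081 with the neuronal level as a covariate and 0.12 without HEM replicate 3. Xaf1, an interferon-induced gene that favours apoptosis, was at 4604, 4317, 4533 and 2000 in HEM and at 1566, 1803 and 1643 in WT. In 3 HEM libraries it was far above WT, and HEM replicate 7 was just above the highest WT library. The difference was 1.13 ± 0.28 (SE; DESeq2 adjusted p 0.0177). Without HEM replicate 7 limma called it (adjusted p 0.0239), which also made it 1 of 2 genes called in that fit. Gbp2, an interferon-induced GTPase, was higher by 0.39 ± 0.17 (SE) with overlapping groups. In each of these immune lists at least 1 WT library lay within the range of the HEM levels. HEM replicate 3 had the highest level of each. Without it the difference of the list levels was 0.39 in place of 0.69 for T and NK cell genes, 0.29 in place of 0.52 for inflammatory genes, 0.26 in place of 0.39 for antigen presentation and 0.11 in place of 0.30 for interferon response genes.

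Microglial genes as a class did not separate the groups. The 15 pan-microglia and myeloid genes had a median difference of 0.01, between -0.16 (Cx3cr1, the fractalkine receptor) and 0.19 (Ctss, cathepsin S), and none had an unadjusted limma p under 0.05. The 18 homeostatic microglia genes had a median of -0.07 and again none below that p. Of 23 disease-associated microglia genes 17 were positive (median 0.13). Of these, 3 had an unadjusted limma p under 0.05, against 3.2% of all tested genes that were higher at that p. Cst7, which encodes the protease inhibitor cystatin F, was at 848, 1470, 825 and 532 in HEM and at 525, 315 and 406 in WT. The lowest HEM library was just above the highest WT library, and the difference was 1.08 ± 0.33 (SE). Cd9, a tetraspanin, was higher by 0.40 ± 0.13 (SE). The 27 lysosome and autophagy genes (median 0.04), the 21 Parkinson disease genes (0.01) and the 34 oxidative phosphorylation genes (0.06) lay near the median of all genes. The largest difference of a Parkinson disease gene was 0.44 (Mapt, the gene for tau), and Mcoln1, a cation channel of lysosomes, was higher by 0.18 ± 0.09 (SE).

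**Figure D3:**
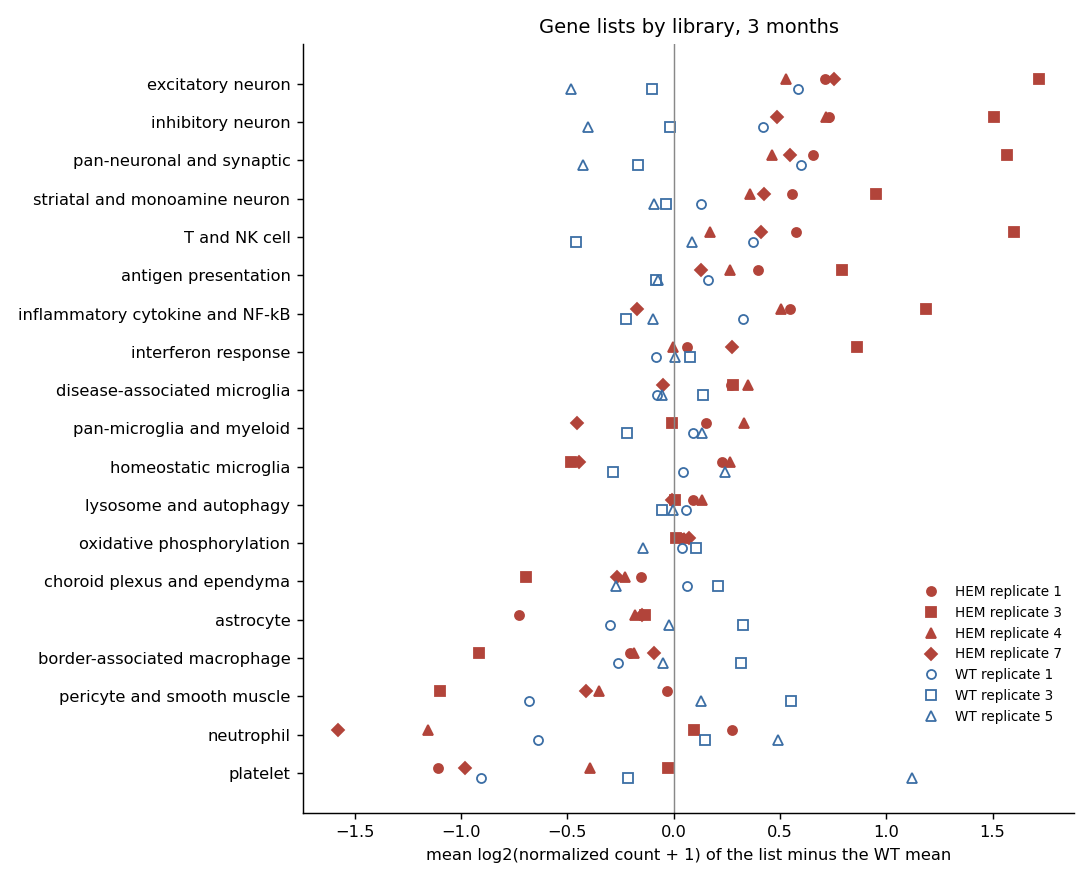
Mean log2(normalized count + 1) of the tested genes of 19 lists in each 3-month library, minus the mean of the 3 WT libraries (horizontal axis), with HEM as filled red and WT as open blue symbols and one shape per replicate. HEM replicate 3 lies farthest to the right in the neuron, T and NK cell, antigen presentation, inflammatory and interferon lists. WT replicate 1 lies among the HEM libraries for the excitatory, pan-neuronal, T and NK cell, inflammatory and antigen presentation lists. WT replicates 3 and 5 do so for the interferon list.

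Genes of motile cilia were prominent among the lower genes of smallest p. Motile cilia beat through axonemal dyneins, motor proteins encoded by Dnah genes, which are anchored and regulated by structural proteins, many of them named Cfap for cilia and flagella associated protein. Hydin, a component of the central pair of the axoneme, was the gene of smallest p in either direction. It was at 701, 771, 772 and 697 in HEM and at 1353, 1433 and 1555 in WT, and the spread within each group was small beside the gap. The log2 difference was -0.98 ± 0.13 (SE; limma unadjusted p 4.21e-05, limma adjusted p 0.825, DESeq2 adjusted p 7.55e-13), between -1.02 and -0.92 with any 1 library omitted.

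Cfap46, a projection protein of the central pair, was at 553, 589, 679 and 463 in HEM and at 963, 1730 and 1099 in WT, a difference of -1.11 ± 0.23 (SE). Spag17, another central pair protein, was at 66.0 to 149 in HEM and 257 to 407 in WT, and Ribc2, a protein inside the doublet microtubules, at 26.9 to 75.1 and 157 to 297. Dnah10, a heavy chain of an inner dynein arm, was at 541, 908, 704 and 331 in HEM and at 1207, 2828 and 1723 in WT, a difference of -1.63 ± 0.38 (SE). Ccdc180, a coiled-coil gene, was lower by a log2 difference of -1.95 ± 0.45 (SE). In each of these genes all HEM libraries were below all WT libraries, HEM replicate 7 was the lowest or next to the lowest HEM library, and WT replicate 3 was the highest WT library. DESeq2 called all of them.

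The Dnah and Cfap genes were then described as families, chosen after their values were seen. Of 15 tested Dnah genes 14 had a negative difference (median -0.56), 8 had all HEM below all WT and 10 had an unadjusted limma p under 0.05 in that direction. Of 30 tested Cfap genes 29 were negative (median -0.49), 12 had all HEM below all WT and 14 had such a p. Over all tested genes 2.81% had all HEM below all WT and 2.67% had such a p. DESeq2 called 7 of the 45, among them Dnah5 and Dnah12 (-1.67 ± 0.46 and -1.66 ± 0.45, SE), heavy chains of an outer and an inner arm. The exceptions were Dnah17 (0.25) and Cfap97 (0.06). Dnah7a, Dnah7b and Dnah7c are close copies of each other, and their counts are uncertain. With the neuronal level as a covariate the medians were -0.42 for Dnah and -0.25 for Cfap, and with 1 library left out they lay between -0.66 and -0.46 and between -0.63 and -0.32.

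Some markers of ependymal cells were also lower in HEM. Foxj1, the transcription factor that switches on the motile cilium program, was at 7270, 6053, 8180 and 8997 in HEM and at 12156, 12731 and 9623 in WT, a difference of -0.60 ± 0.16 (SE; limma unadjusted p 0.00474). Ccdc153 and Tmem212, markers of ependyma, were lower by -1.95 ± 0.64 and -1.86 ± 0.69 (SE) and overlapped. Of the 13 choroid plexus and ependyma genes together, 8 were positive and 5 negative (median 0.07), and their mean log2 level ran from 13.73 to 14.27 in HEM and from 14.15 to 14.63 in WT. None of the 13 was at 0. The part of ependymal cells in the cilium genes was not tested.

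Rfx factors, which regulate cilium genes, bind the X-box, a motif that contains the letters GTTGCC, or GGCAAC on the other strand. These letters were searched on both strands in RefSeq promoters of 300 bases, 250 before and 50 after the start (GRCm38.p6). They were present in 12.5% of 32851 promoters, and 14.1% of 27025 genes had them at any of their starts. Of the 37 Dnah and Cfap genes with an entry 14 held them (37.8%), as did 6 of 11 of the lower and 2 of 10 of the higher genes of smallest p. The promoters printed here belong to lower genes that hold these letters near the start. They are those of Hydin (chr8:110266727-110267026, plus strand), Cfap46 (chr7:139683766-139684065, minus strand), Ccdc180 (chr4:45890053-45890352, plus strand) and Dnah10 (chr5:124724835-124725134, plus strand), 5′ to 3′ on the strand of the gene, with matches in capitals.
Hydin: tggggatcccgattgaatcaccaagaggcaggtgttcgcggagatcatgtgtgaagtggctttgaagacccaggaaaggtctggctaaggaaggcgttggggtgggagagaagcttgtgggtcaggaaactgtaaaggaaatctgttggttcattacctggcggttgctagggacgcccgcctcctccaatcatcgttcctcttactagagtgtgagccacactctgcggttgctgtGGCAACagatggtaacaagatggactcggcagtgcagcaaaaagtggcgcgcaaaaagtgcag
Cfap46: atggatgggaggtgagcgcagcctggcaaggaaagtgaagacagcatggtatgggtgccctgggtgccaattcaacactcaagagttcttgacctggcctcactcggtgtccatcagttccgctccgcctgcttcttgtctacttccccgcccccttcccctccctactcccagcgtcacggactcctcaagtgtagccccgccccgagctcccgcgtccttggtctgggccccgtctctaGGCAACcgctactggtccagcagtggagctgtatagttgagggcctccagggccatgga
Ccdc180: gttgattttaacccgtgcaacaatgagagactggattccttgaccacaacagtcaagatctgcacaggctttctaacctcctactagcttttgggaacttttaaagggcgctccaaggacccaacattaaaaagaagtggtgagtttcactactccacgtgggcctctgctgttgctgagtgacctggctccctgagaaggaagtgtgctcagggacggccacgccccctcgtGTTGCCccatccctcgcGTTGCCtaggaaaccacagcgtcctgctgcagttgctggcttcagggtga
Dnah10: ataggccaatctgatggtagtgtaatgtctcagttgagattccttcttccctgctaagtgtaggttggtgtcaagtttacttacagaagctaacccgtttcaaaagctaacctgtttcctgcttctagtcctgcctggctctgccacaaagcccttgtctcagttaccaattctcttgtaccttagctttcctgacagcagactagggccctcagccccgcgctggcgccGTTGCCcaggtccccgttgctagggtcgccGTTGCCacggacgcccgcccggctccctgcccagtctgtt
The match began 13 bases before the start in Hydin and 9 before in Cfap46. Ccdc180 held 2, at 17 bases before the start and at the first transcribed base, and Dnah10 held 2, at 20 before and at base 11. A match of these letters is a description and does not show binding. The genes of the factors were near the median of all genes or slightly below it: Rfx2 was at 1370 to 1752 in HEM and 1640 to 2050 in WT (-0.23 ± 0.14, SE), and Rfx3 differed by -0.22 ± 0.19 (SE).

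Other lower genes had other roles. Spata18, which encodes Mieap, a protein of mitochondrial quality control, was at 336, 294, 297 and 255 in HEM and at 668, 580 and 743 in WT. All HEM libraries were well below all WT libraries, and the difference was -1.16 ± 0.18 (SE; DESeq2 adjusted p 7.52e-08). Got1l1, a gene related to aspartate aminotransferase, was at 49.2, 53.9, 98.1 and 34.5 in HEM and at 256, 384 and 178 in WT, a difference of -2.22 ± 0.41 (SE). Pde4d, a phosphodiesterase that degrades cyclic AMP, was at 600 to 752 in HEM and 1070 to 1252 in WT. The secreted protease gene Adamts20 (-1.15 ± 0.26, SE) and the synaptotagmin gene Syt10 (-1.37 ± 0.32, SE) completed the 12 together with the genes of cilia and Epx. DESeq2 called each of these.

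Some genes of neural precursors and most of the astrocyte genes had lower values. The 11 immature neuron and neural precursor genes were split, with 5 positive and 6 negative. Their median changed sign without HEM replicate 3 or without WT replicate 5. Sox2, a transcription factor of neural stem cells, ependyma and astroglia, was at 2183, 2340, 3039 and 2620 in HEM and at 3564, 5351 and 3583 in WT. All HEM libraries were below all WT libraries (-0.69 ± 0.18, SE). Of 15 astrocyte genes 13 were negative (median -0.30). The glutamate transporter gene Slc1a3 was at 15986, 24277, 23665 and 26467 in HEM and at 20889, 61021 and 50954 in WT, so WT replicate 1 lay within the HEM range. All 10 pericyte and smooth muscle genes were negative (median -0.42), none with an unadjusted limma p under 0.05, and the median was 0.29 with the neuronal level as a covariate. Pf4, a chemokine of platelets and border-associated macrophages, was at 921 to 1107 in HEM and 1337 to 1720 in WT.

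Epx encodes the peroxidase of eosinophil granules. It was at 222, 53.9, 138 and 251 in HEM and at 479, 835 and 1515 in WT. All HEM libraries were below all WT libraries, and the difference was -2.56 ± 0.57 (SE; DESeq2 adjusted p 0.00276). Further eosinophil genes were read after this was seen, of which Ear1 and Ear2 are not reported here. The granule protein genes Prg2 and Prg3 differed by -2.23 ± 0.66 and -2.18 ± 0.65 (SE), with overlapping groups for Prg3, and the ribonuclease gene Ear6 by -1.66 ± 0.46 (SE). At 13 months the same genes were higher in HEM: Epx by 4.31 ± 0.80 (SE; limma adjusted p 0.00271), with 451 to 7764 in HEM and 25.6 to 653 in WT. For Epx, Prg2, Prg3 and Ear6 the difference between the ages had a limma adjusted p of 0.0696 each, which misses the threshold of 0.05. Of 14 neutrophil genes 13 were negative at 3 months (median -0.63), and 12 of 14 passed limma's adjusted test as higher at 13 months (median 1.96). All 8 platelet genes were negative at 3 months (median -0.70), and 7 passed that test as higher at 13 months (median 1.69). Over all tested genes 13.7% passed it at 13 months, in either direction. At 3 months no neutrophil or platelet gene had an unadjusted limma p under 0.05 or all HEM below all WT. The neutrophil median there was 0.44 and the platelet median -0.027 with the replicate number as a block. Only replicates 1 and 3, whose numbers occur in both groups, inform the difference in that fit. The platelet median was -0.086 without WT replicate 5.

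**Figure D4:**
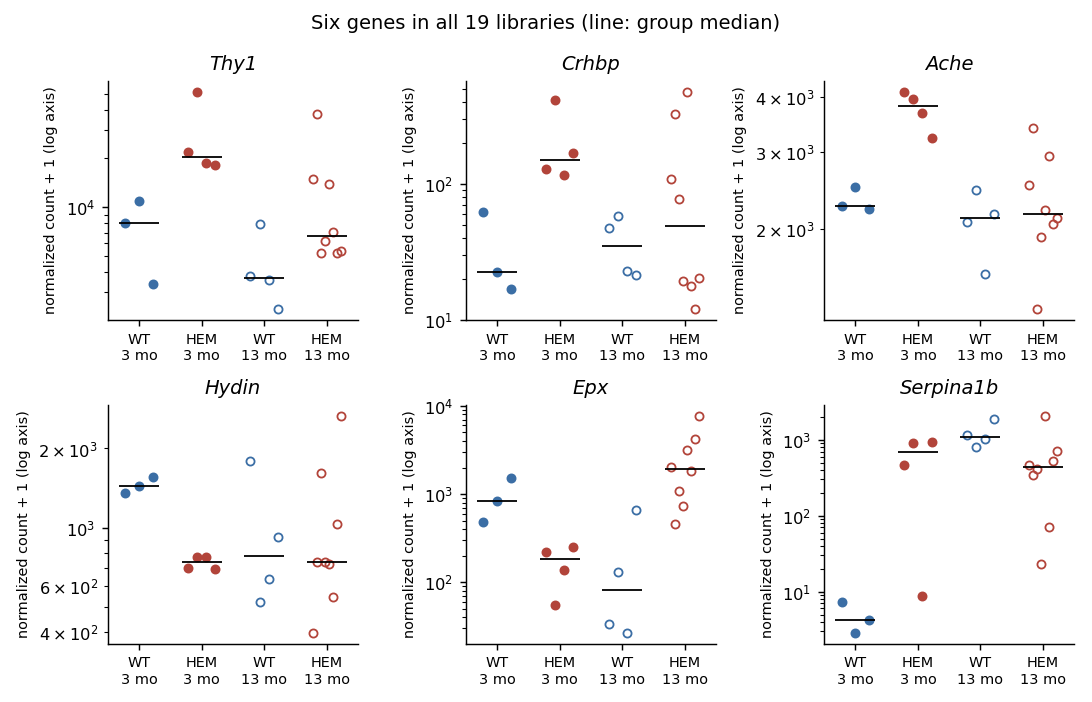
Normalized count + 1 on log axes of 6 genes in all 19 libraries, by genotype and age (filled, 3 months; open, 13 months; red, HEM; blue, WT; line, group median). Ache and Hydin separate HEM from WT at 3 months and not at 13 months, Epx is lower in HEM at 3 months and higher at 13 months, and Serpina1b is low in WT at 3 months and high in WT at 13 months.

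Serpina1b, which encodes an α1-antitrypsin, was present in some animals and nearly absent in others, and was singled out after its values were seen. It was at 467, 912 and 938 in HEM replicates 1, 3 and 7, at 7.67 in HEM replicate 4, and at 6.34, 1.86 and 3.19 in WT. HEM replicate 4 was thus close to WT. At 13 months the WT libraries ranged from 808 to 1852 and the HEM libraries from 22.4 to 2081. Further serpin genes of chromosome 12, Serpina1a (28.6, 128, 7.67 and 159 in HEM and 4.66 to 8.45 in WT) and Serpina3h (129, 240, 2.30 and 46.7 in HEM and 1.59 to 4.22 in WT) were low in the same 4 libraries. Serpina1c, Serpina1d and Serpina1e were also looked up and are not reported here. Serpina1 genes are near-identical copies on chromosome 12, so how reads were divided among them is uncertain. Alb, a gene of liver, was at 53.8 to 99.3 in HEM and 48.5 to 84.5 in WT. Gm6685 on chromosome 11 was at 144, 104, 153 and 7.11 in HEM and at 2.11, 0.932 and 5.57 in WT, with HEM replicate 7 the low one. At 13 months it was at 2.80 to 198 in WT and 5.20 to 76.1 in HEM.

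By position, the X chromosome, which carries the transgene, had 28 of 707 tested genes (3.96%) with groups that did not overlap and no gene that DESeq2 called. Chromosome 12 had the highest share, 56 of 737 (7.6%), against 5.77% over all genes. The other autosomes lay between 3.84% (chromosome 16) and 6.6% (chromosome 13).

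At 13 months, limma in a model of all 4 groups called 2998 of 21859 genes (13.7%). The 3-month and 13-month comparisons share no libraries. Of those 2998 genes 1489 (49.7%) had the same sign at 3 months, against 49.8% of all tested genes, and the correlation of the log2 differences across genes, which are not independent replicates, was -0.038. The difference of the genotype effects between the ages passed limma's adjusted test for 0 of 21859 genes (0.0%), with 3425 (15.7%) at an unadjusted p under 0.05. DESeq2 called 1000 of 16343 genes (6.12%) for that difference. Of the immune genes described at 3 months, Ccl4, Ccl3, Ccrl2 and H2-Aa were higher in HEM at 13 months by 2.27, 1.82, 1.93 and 0.67 and passed limma's adjusted test there. Gzmb, Ncr1, Gbp2, H2-K1, Cst7, Xaf1 and Slamf9 had differences of 1.54, 0.72, 0.49, 0.46, 0.45, 0.22 and 0.08 at 13 months, none of which passed it. Lgals3bp had the opposite sign, 0.50 at 3 months and -0.40 ± 0.09 (SE; limma adjusted p 0.00838) at 13 months, and its adjusted p for the difference was 0.0696 in limma.

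Among the cilium genes the Dnah median changed sign between the ages and the Cfap median did not. The Dnah median was -0.56 at 3 months and 0.51 at 13 months, and the Cfap median -0.49 and -0.29. At 13 months 2 of 15 Dnah and 7 of 30 Cfap genes passed limma's adjusted test, against 13.7% of all tested genes. Hydin was at 396 to 2667 in HEM and 519 to 1787 in WT at 13 months (0.04 ± 0.39, SE), a spread several times that of the 3-month groups. Foxj1 was lower at both ages (-0.60 and -0.73; limma adjusted p 0.0498 at 13 months). Neuronal genes had a pan-neuronal median of 0.79 at 3 months and 0.16 at 13 months. The choroid plexus and ependyma median was 0.07 and -0.93, with 9 of 13 genes lower at 13 months by limma's adjusted test. That test called 13.7% of all tested genes, in either direction.

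**Figure D5:**
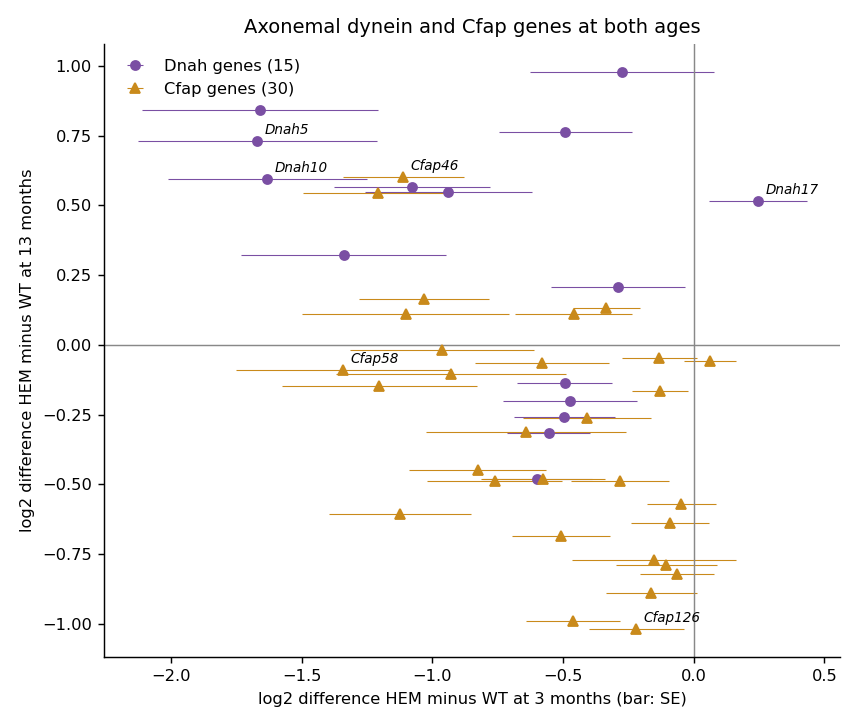
Log2 differences, HEM minus WT, of 15 Dnah genes (circles) and 30 Cfap genes (triangles) at 3 months (horizontal axis, bars: SE) and at 13 months (vertical axis). All but Dnah17 and Cfap97 lie left of 0 at 3 months, and at 13 months they lie on both sides of 0.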

How the data were processed

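RNA-seq libraries of 19 mice were deposited, of which 7 at 3 months are compared here. Per the labels' protocols, microglia were enriched from brain, RNA was extracted with an AllPrep kit, and library preparation used NEBNext Ultra II RNA. The tools named, per the submitters' processing notes, include featureCounts, HISAT2, Trimmomatic and DESeq2, with build mm10; versions and strand setting are not given in the sources used here. The authors deposited a signal, gene counts divided by 1 size factor per library, as read from the values: 100% were whole multiples of the library's step (tolerance 0.01), which gave back the reads. Values were read from the file deposited for each titled sample. Genes with 2 reads outnumbered those with 1 read (1820 to 2320 against 871 to 1172 per library), so reads are not all independent molecules.

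Symbols came from GENCODE M21. The main test was limma-trend (limma 3.58.1, R 4.3.3, robust, two-sided) on log2(value + 1) of the 7 libraries, Benjamini-Hochberg adjusted over all tested genes; such differences understate changes of low genes. Ages were compared in a model of the 4 groups. edgeR 4.0.16, DESeq2 1.42.0, voom weights, pseudocounts of 0.5 and 10, TMM scaling, other filters, a neuronal covariate, a replicate block and leaving out libraries were alternatives; the DESeq2 fits that left out libraries were added after seeing the data. Scripts were tested on simulated data. Nothing states that animals came from separate litters; p-values measure the spread between these samples. Named genes were Thy1, sex-linked genes, the 12 of smallest p in each direction at a mean log2 level of at least 6 with a symbol that is not a predicted name, and the 2 of smallest p in each of 41 lists, of which a part is printed; some genes that this rule names are not reported here. Members and lists were chosen with earlier results of these data known.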

Additional observations from a re-analysis of the deposited data

Results flagged for a closer look

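In the 4 HEM libraries at 3 months, 93 values (named genes and list levels) were checked for 1 library far from the other 3, by the gap to the nearest library as a share of the range (Dixon's 95% limit). 8 values met this, and chance flags about 1 in 20. HEM replicate 3 was far above the others for Thy1 (51370, others 18307 to 21865), Slc17a7 (19220, others 5984 to 6721) and Gad2 (1134, others 507 to 566), and far below for Pde4d (599.7, others 739 to 752) and the level of border-associated macrophage genes (9.85, others 10.57 to 10.68). HEM replicate 1 was far above for Dlx5 (76.91, others 50.4 to 52.1) and far below for the level of astrocyte genes (13.16, others 13.71 to 13.75). Xaf1 in HEM replicate 7 was at 2000 (others 4317 to 4604).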

How the results depend on the processing

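limma called 0 genes at 3 months with every other pseudocount, scaling and filter, in the 4-group model, with voom weights and with edgeR, and 1 gene (1500004A13Rik) with the neuronal level as a covariate. Leaving out 1 library gave 0 to 2 calls with limma (Serpina1b without HEM replicate 4) and 30 to 545 with DESeq2, against 99 with all 7: 44, 65, 200 and 172 without HEM replicate 1, 3, 4 or 7, and 545, 48 and 30 without WT replicate 1, 3 or 5. The cause was not tested. For the difference between ages the count was 0, 1000 with DESeq2 and 0 to 348 with 1 of 19 libraries left out (348 without HEM_13mo replicate 7 and 328 without WT_13mo replicate 6).

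Nearly all named genes were chosen by their p in these same libraries, which by itself favours a stable sign. Of 1352 alternative values of 52 named genes 1349 kept their sign. Cx3cr1 (-0.16 in the main test) did not: 0.010 with the neuronal covariate, -0.35 to 0.0021 with 1 library left out (highest without WT replicate 5) and 0.0097 there in DESeq2. Of 779 list medians under alternatives 755 moved by less than 1 SD between replicates. That measure does not count a change of sign. Most lists had the other sign in at least 1 of 19 settings. The inflammatory median went from 0.33 to -0.070 with the neuronal covariate, and the neutrophil median from -0.63 to 0.44 with the replicate block. The pan-neuronal, excitatory, inhibitory, striatal, astrocyte, disease-associated microglia, platelet, interferon, antigen presentation, lysosome and DNA methylation lists kept their sign in all 19.

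The 2 replicate numbers shared by the groups gave correlations of deviations of 0.018 and -0.042. Pairs of different numbers gave -0.16 to 0.092. With only 2 shared numbers, whether the numbers pair the samples cannot be decided. With the replicate block limma called 0 genes at 3 months and 0 for the difference between ages. At 3 months only numbers 1 and 3 occur in both groups and inform the genotype difference of that fit, so its 0 calls decide little. With 3 and 4 animals the median SE over genes was 0.23 on the log2 scale, at 74.7 to 112.9 M reads per library.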

Other observations

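DESeq2 called further genes at 3 months that the text has not described, chosen here after their values were seen. The chemokine genes Ccl17 and Ccl22, whose products attract T cells, were at 45.7 to 79.6 and 75.9 to 183 in HEM and at 11.2 to 22.2 and 44.6 to 56.9 in WT. The serotonin receptor gene Htr5a was at 40.6 to 86.7 in HEM and at 13.1 to 23.2 in WT. Il12rb1, a receptor chain for interleukin 12, was at 140, 303, 92.0 and 174 in HEM and at 51.7, 28.9 and 63.7 in WT. Nnat, an imprinted gene of the developing brain, was at 5876 to 9459 in HEM and 10098 to 23023 in WT. For each of these 5 genes all 4 HEM libraries were on one side of all 3 WT libraries. Of the 99 called genes 7 also passed limma's adjusted test at 13 months, 4 with the same sign, against 13.7% of all tested genes that passed it.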
